A study of Mus musculus with 18 samples.

Results

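The Klf family transcription factors described here are *Klf2*, *Klf3*, *Klf4*, *Klf5*, *Klf6*, *Klf9*, *Klf10* and *Klf13*, which were picked by gene symbol and make up 8 of the 24369 genes in the deposited gene table. RNA-seq was performed on 12 libraries of a differentiation time course, with 3 libraries at each of days 0, 1, 2 and 3, and on 6 libraries of sorted Rex1GFP+ cells, with 2 libraries for each of 3 genotypes. All 18 libraries come from E14 mouse embryonic stem cells (mESCs) of the genotype Rex1GFPd2-Cas9, which carry a destabilized GFP at *Rex1* (*Zfp42* in the files) and a Cas9 transgene. The time-course cells have no further mutation. The GFP+ cells were wild-type in this background, Rex1GFPd2-Cas9 Nprl2-/- or Rex1GFPd2-Cas9 Tsc2-/-, and the KO lines were made by deleting a critical exon with a pair of guide RNAs. Nprl2 is a subunit of Gator1 and Tsc2 a subunit of the Tsc complex, and both complexes restrain the kinase complex mTORC1. The parental line is kept on feeder cells in serum and LIF (SL). The study's general protocol induces differentiation in NDiff227, a serum-free medium, without LIF and without inhibitors of Mek and Gsk3. How many clones stand behind the KO libraries, and in which medium the time-course cells were kept before differentiation, are not given in the sources used here. The labels do not say whether the libraries of a group come from separate cultures, so p-values measure the spread between these libraries, which may be technical.

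Klf proteins are zinc-finger transcription factors whose related DNA-binding domains recognise GC-rich and CACCC-type sequences, while the rest of each protein recruits different cofactors. Klf2, Klf4 and Klf5 activate the genes of naive pluripotency, the state of the pre-implantation epiblast in which mESCs self-renew, and they can partly replace each other there. LIF maintains *Klf4* in mESCs through Stat3. Klf3 is a repressor that recruits the corepressor CtBP. Klf9, Klf10 and Klf13 recruit the Sin3A corepressor. *Klf9* is known as a target of glucocorticoid and thyroid hormone, *Klf10* as an early target of Tgf-beta, and Klf6 as an injury- and serum-responsive factor with tumour suppressor activity.

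The members lie on 8 different chromosomes. In GRCm38.p6, the RefSeq gene table places *Klf2* at chr8:72319062-72321654, *Klf3* at chr5:64803521-64832901, *Klf4* at chr4:55527137-55532475 and *Klf5* at chr14:99298691-99313412. *Klf6* lies at chr13:5861489-5870393, *Klf9* at chr19:23141226-23168129, *Klf10* at chr15:38291464-38300711 and *Klf13* at chr7:63886351-63938915. The deposited values are per RefSeq transcript. *Klf10* has a second transcript, which was listed at 0 in 17 of the 18 libraries and at 2.6 estimated counts in *Nprl2* KO library 2. Each other member has 1 transcript, so the gene level equals the level of that transcript.

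The sequences upstream of 4 members are shown because these genes gave the steepest loss (*Klf2* and *Klf4*) and the 2 gains (*Klf6* and *Klf13*) of the time course. Each line gives the 250 bases before the annotated start, 5′ to 3′ on the strand of the gene, from RefSeq and GRCm38.p6. The window of *Klf2* is chr8:72318812-72319061 on the plus strand, that of *Klf4* chr4:55532476-55532725 on the minus strand, that of *Klf6* chr13:5861239-5861488 on the plus strand and that of *Klf13* chr7:63938916-63939165 on the minus strand. Capitals mark the GC box letters GGGCGG, the box named after its letters CACCC and the CCAAT box, on either strand.
*Klf2*: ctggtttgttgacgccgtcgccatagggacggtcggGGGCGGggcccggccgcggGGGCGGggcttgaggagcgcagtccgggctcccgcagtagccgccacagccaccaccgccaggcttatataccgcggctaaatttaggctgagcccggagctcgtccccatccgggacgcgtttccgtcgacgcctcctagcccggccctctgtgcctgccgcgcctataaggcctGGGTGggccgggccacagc
*Klf4*: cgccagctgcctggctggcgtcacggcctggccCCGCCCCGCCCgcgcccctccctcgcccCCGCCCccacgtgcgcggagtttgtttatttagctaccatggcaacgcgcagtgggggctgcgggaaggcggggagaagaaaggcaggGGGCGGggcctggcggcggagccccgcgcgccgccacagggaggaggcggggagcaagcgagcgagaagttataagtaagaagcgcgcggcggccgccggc
*Klf6*: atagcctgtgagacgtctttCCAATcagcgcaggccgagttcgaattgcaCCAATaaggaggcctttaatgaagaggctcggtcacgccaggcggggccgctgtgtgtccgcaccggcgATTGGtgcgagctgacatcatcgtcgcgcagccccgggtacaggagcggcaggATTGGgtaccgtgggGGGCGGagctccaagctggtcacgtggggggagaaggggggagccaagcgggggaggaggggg
*Klf13*: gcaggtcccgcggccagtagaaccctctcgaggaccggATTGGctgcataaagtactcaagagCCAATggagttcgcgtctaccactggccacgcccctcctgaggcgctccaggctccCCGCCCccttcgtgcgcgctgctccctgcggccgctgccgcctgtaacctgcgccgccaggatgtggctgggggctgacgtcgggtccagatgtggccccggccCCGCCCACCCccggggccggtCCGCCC

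Windows were found for 6 of the 8 members, *Klf5* and *Klf10* being the others. The GC content was 71.2% in *Klf2*, 74% in *Klf4*, 64.8% in *Klf6* and 71.6% in *Klf13*, against a median of 52.4% over 32851 windows of the same length. GGGCGG, the letters of the GC box that Sp and Klf factors can bind, occurred 4 times in *Klf4*, 2 times in *Klf2*, 3 times in *Klf13*, 6 times in *Klf3* and 1 time in *Klf6*. It was not found in the window of *Klf9*, and 32.7% of all windows hold it. CACCC occurred 5 times in *Klf3* and 1 time each in *Klf2*, *Klf9* and *Klf13*, and in 52% of all windows. CCAAT separated the members differently, with 4 matches in *Klf6*, 3 in *Klf9*, 2 in *Klf13* and 0 in *Klf2*, *Klf3* and *Klf4*, and 33.8% of all windows hold it. In *Klf13* a GGGCGG match shares bases with a CACCC match, and in *Klf4* neighbouring GGGCGG matches share a base. TTCCNGGAA (0.913% of all windows), CTTTGAT (3.21%) and TGACGTCA (1.55%), all searched on both strands, had 0 matches in the 6 windows. These are matches of letters in a short window and say nothing about binding.

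Totals of estimated counts per library were 12503005 to 15305054 in the time course and 8610357 to 13780861 in GFP+ cells. Markers of pluripotent cells (*Pou5f1*, *Sox2*, *Nanog*, *Zfp42* and *Esrrb*) were each detected in all libraries. They summed to 4170 to 4319 TPM (transcript abundance scaled for transcript length and library total) at day 0 and 1269 to 1553 TPM at day 3. The mean of *Pou5f1*, the largest of them, went from 1845 to 1233 TPM. The others fell further, *Sox2* from 456 to 56.1 TPM and *Nanog* from 782 to 127 TPM. *Zfp42* fell from 775 to 12.8 TPM and *Esrrb* from 403 to 1.35 TPM. Markers of formative epiblast, the state that follows the naive one, summed to 116 to 138 TPM at day 0 and 1311 to 1607 TPM at day 3. The summed level of 8 feeder fibroblast markers was 9.33 to 17.2 TPM at day 0 and 35.0 to 43.4 TPM at day 3. Within that sum the mean of *Thy1* rose from 4.38 to 30.1 TPM, and *Col1a2*, *Dcn* and *Fbn1* rose at lower levels. Between the same days *Col1a1* fell from 4.20 to 1.17 TPM, *Col3a1* from 0.85 to 0.14 TPM and *Postn* from 0.95 to 0.073 TPM. In GFP+ cells the summed level was 112 to 159 TPM in wild-type and 117 to 122 TPM in *Nprl2* KO. It was 141 and 38.7 TPM in the *Tsc2* KO libraries. *Lum* was below 1 TPM in all GFP+ libraries. Markers of endoderm, early neural cells and mesoderm summed to at most 11.4, 11.9 and 10.5 TPM. What part these markers have in the changes of the members over the days was not tested. *Nprl2* was 16.1 and 17.0 TPM in wild-type and 8.09 and 8.65 TPM in *Nprl2* KO, and *Tsc2* was 44.9 and 45.0 TPM in wild-type and 18.8 and 20.3 TPM in *Tsc2* KO, so each targeted transcript was lower in its KO and not absent.

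At day 0 the family was led by the 3 naive pluripotency activators. *Klf2* averaged 318 TPM, *Klf5* 196 TPM and *Klf4* 196 TPM, and the last 2 could not be ordered because their libraries overlapped. *Klf9* followed at 95.5 TPM, ahead of *Klf10* (66.4 TPM) and *Klf3* (65.8 TPM), which overlapped. *Klf13* at 27.0 TPM and *Klf6* at 18.2 TPM were the lowest members. By day 3 the order had turned over. *Klf6* was then the highest member at 74.7 TPM, above *Klf10* (43.7 TPM) and *Klf13* (40.5 TPM), which overlapped, then *Klf9* (33.6 TPM), *Klf3* (28.2 TPM), *Klf5* (12.4 TPM), *Klf2* (7.004 TPM) and *Klf4* (2.67 TPM).

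**Figure D1:**
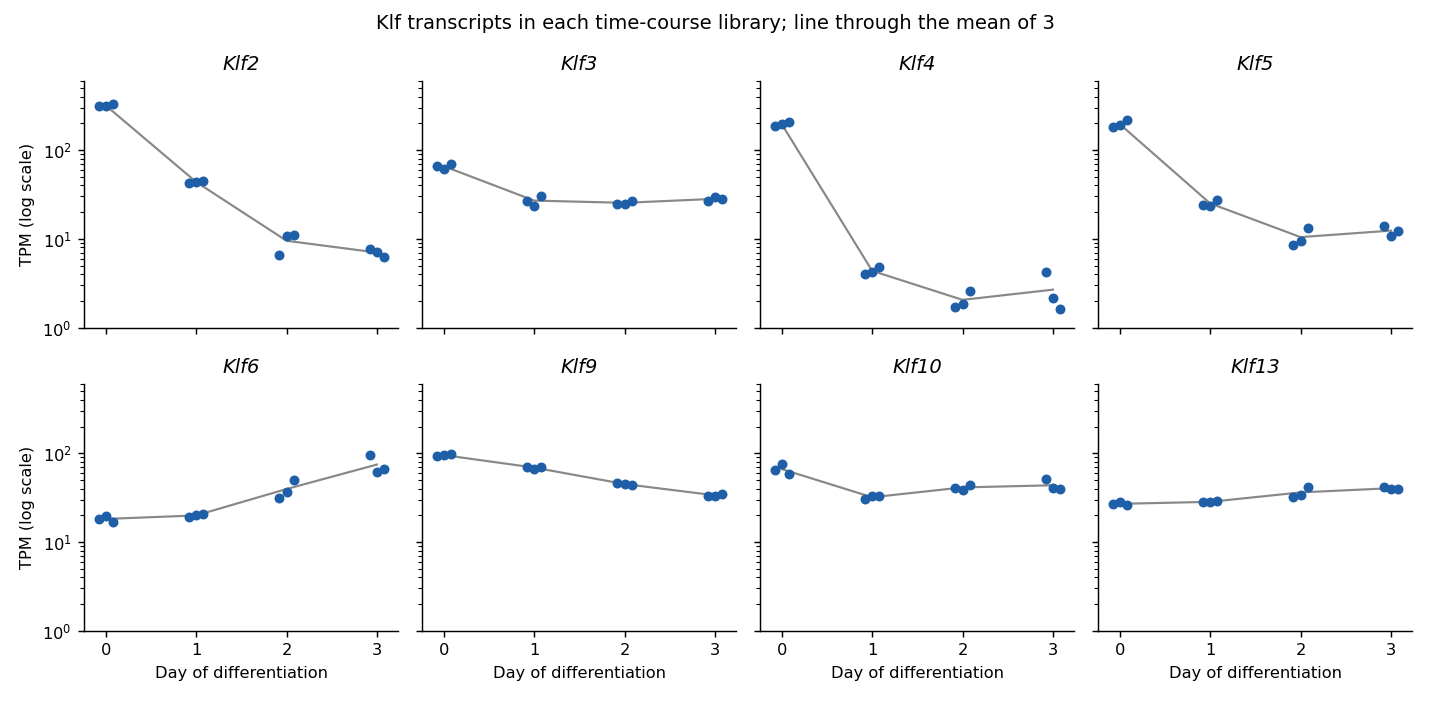
Level of each member in TPM (log axis) by day of differentiation, one point per library and a line through the mean of 3 libraries. *Klf2*, *Klf4* and *Klf5* start near or above 190 TPM and lie below 14 TPM at day 3, whereas *Klf6* ends between 61.1 and 96.8 TPM.

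*Klf4* fell the most within the first day. It was 185, 197 and 205 TPM in the libraries of day 0 and 3.96, 4.26 and 4.84 TPM at day 1, that is 2.23% ± 0.23 (SD, n = 3) of the mean of day 0. The groups were far apart, and all 3 libraries of day 1 were low. In edgeR's quasi-likelihood test, fitted over 14382 genes with Benjamini-Hochberg adjustment, the log2 fold change was -5.42 ± 0.18 (SE), or 42.9-fold lower (adjusted p = 1.63e-10). In bulk RNA, fewer cells that express a gene and less RNA per cell cannot be told apart. *Klf4* was 1.69, 1.86 and 2.61 TPM at day 2, below day 1 (log2 fold change -1.20 ± 0.29, adjusted p = 0.00328). At day 3 it was 4.24, 2.18 and 1.604 TPM, a range that overlaps those of days 1 and 2. These levels rest on 32 to 100 estimated counts per library from day 1 on, and the change from day 2 to day 3 was 0.37 with a 95% interval of -0.32 to 1.06 (adjusted p = 0.407). Without day 3 library 1, the highest of its day, that change was -0.14 (adjusted p = 0.664, with a range of 0.0734 to 0.664 over the alternatives).

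*Klf2* and *Klf5* fell in 2 steps. *Klf2* was 314, 314 and 327 TPM at day 0, and 43.0, 43.4 and 44.7 TPM at day 1. A further fall left it at 6.55, 10.9 and 11.1 TPM at day 2 and 7.67, 7.17 and 6.17 TPM at day 3. Days 0, 1 and 2 were separate, and days 2 and 3 overlapped. The log2 fold change was -2.79 ± 0.09 for day 1 against day 0 (adjusted p = 2.7e-14) and -2.31 ± 0.12 for day 2 against day 1 (adjusted p = 1.89e-11). By day 3 *Klf2* was 47.9-fold lower than at day 0 (adjusted p = 2.09e-17). The last step, -0.48 from day 2 to day 3, had an adjusted p of 0.0218 and was not called without day 2 library 2 (0.13), day 2 library 3 (0.091) or day 3 library 3 (0.0952), over a range of 5.91e-04 to 0.13.

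*Klf5* was 183, 189 and 216 TPM at day 0 and 24.1, 23.7 and 27.4 TPM at day 1. It then reached 8.59, 9.46 and 13.3 TPM at day 2 and 13.9, 10.9 and 12.4 TPM at day 3. Its fall over the first day was close to that of *Klf2*, with a log2 fold change of -2.90 ± 0.10 (adjusted p = 1.04e-13), and the second step was smaller, at -1.37 ± 0.13 (adjusted p = 7e-08). From day 2 to day 3 the change was 0.21 (95% interval -0.10 to 0.51, adjusted p = 0.297). Without day 2 library 3 it was 0.41 and called (adjusted p = 0.0274, over a range of 0.0274 to 0.701). At day 3 *Klf5* stood at 6.31% ± 0.77 of day 0 (SD, n = 3) and was 16.8-fold lower (adjusted p = 1.42e-15).

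The ratios between these 3 genes show their unequal fall. In each library of day 0 the TPM of *Klf5* was 0.963 to 1.05 times that of *Klf4*, and at day 1 it was 5.55 to 6.08 times. *Klf2* was 1.592 to 1.6996 times *Klf4* at day 0 and 9.25 to 10.9 times at day 1. *Klf2* was 1.51 to 1.83 times *Klf5* in the libraries of both days, and 0.498 to 0.661 times *Klf5* at day 3.

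Of the members that recruit corepressors, *Klf3*, *Klf9* and *Klf10* also fell, each with its own course, whereas *Klf13* rose. *Klf9* was 94.0, 94.8 and 97.8 TPM at day 0, then 69.8, 66.8 and 70.6 TPM, then 46.2, 45.6 and 43.4 TPM, and finally 33.4, 32.9 and 34.6 TPM at day 3. No 2 days overlapped, and *Klf9* fell at every step. Its log2 fold changes were -0.40 from day 0 to day 1 (adjusted p = 4.02e-06), -0.73 to day 2 (2.45e-09) and -0.47 to day 3 (1.39e-05). At day 1 and day 2 *Klf9* had the highest mean level of the family, at 69.1 and 45.1 TPM, although at day 2 its libraries overlapped with those of *Klf10* and *Klf6*.

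*Klf3* dropped once and then stayed level. Its libraries were at 66.5, 60.6 and 70.4 TPM at day 0 and 26.9, 23.7 and 30.3 TPM at day 1 (log2 fold change -1.22 ± 0.08, adjusted p = 3.31e-10). Days 1, 2 and 3 overlapped, with all 9 libraries between 23.7 and 30.3 TPM. The change from day 1 to day 2 was -0.20 (adjusted p = 0.0642), and -0.28 without day 1 library 2 (adjusted p = 0.0164, over a range of 0.0164 to 0.47). From day 2 to day 3 it was 0.11 (adjusted p = 0.382).

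*Klf10* had its lowest point at day 1. It was 65.7, 75.1 and 58.3 TPM at day 0, and 30.3, 32.7 and 33.0 TPM at day 1, a fall of 1.98-fold (adjusted p = 2.76e-07). It was then 41.2, 39.1 and 43.6 TPM at day 2 and 51.0, 40.8 and 39.2 TPM at day 3. All libraries of days 2 and 3 lay above those of day 1 and below those of day 0. The rise from day 1 to day 2 was 0.25 on the log2 scale (adjusted p = 0.0399), and it was no longer called without any 1 library of day 1, or without day 2 library 1 or 3, where the adjusted p lay between 0.0642 and 0.138. With all libraries kept it was not called with DESeq2 (0.0678) or without a filter on low counts (0.0623), over a range of 0.00273 to 0.138.

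*Klf6* rose, and it rose late. It was 18.4, 19.5 and 16.7 TPM at day 0 and 18.9, 20.02 and 20.9 TPM at day 1, and these ranges overlapped (log2 fold change 0.20, 95% interval -0.29 to 0.68, adjusted p = 0.452). At day 2 it was 31.6, 36.7 and 50.5 TPM, and at day 3 it was 96.8, 61.1 and 66.3 TPM. Both later days stood above the days before them. The rise was 0.87 ± 0.21 from day 1 to day 2 (adjusted p = 0.00465) and 0.88 ± 0.20 from day 2 to day 3 (adjusted p = 0.00835), and day 3 was 3.87-fold above day 0 (adjusted p = 1.5e-05). The step from day 2 to day 3 was not called when these 2 days were fitted alone (adjusted p = 0.0641, over a range of 2.18e-04 to 0.0641). Day 3 library 1 was well above the other two. Without it the log2 fold change against day 0 was 1.71 instead of 1.95, and the adjusted p lay between 1.19e-19 and 2.61e-04 over the alternatives.

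*Klf13* rose by less. It was 26.6, 28.4 and 25.9 TPM at day 0, 28.1, 28.0 and 29.1 TPM at day 1, 32.6, 34.2 and 42.0 TPM at day 2 and 41.9, 39.5 and 40.0 TPM at day 3. Days 0 and 1 overlapped (log2 fold change 0.14, 95% interval -0.01 to 0.30, adjusted p = 0.0923), as did days 2 and 3. The rise from day 1 to day 2 was 0.24 (adjusted p = 0.0077), and 0.13 and not called without day 2 library 3 (adjusted p = 0.0892, over a range of 0.00105 to 0.0892). Without that library the step to day 3 was 0.23 and called (adjusted p = 0.00614, over a range of 0.00614 to 0.636). At day 3 *Klf13* was 1.41-fold above day 0 in the fit of counts (adjusted p = 4.4e-06). In TPM it was 150% ± 4.81 of day 0 (SD, n = 3), and in counts scaled to the library total 141%.

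**Figure D2:**
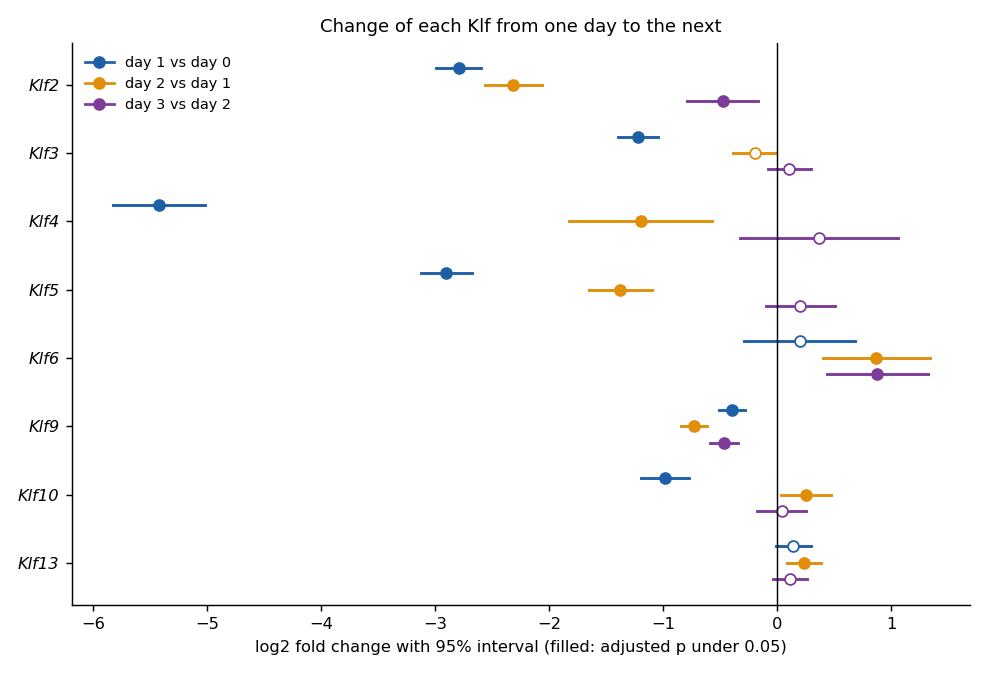
Log2 fold change of each member from one day to the next, with 95% intervals from edgeR, where filled points have an adjusted p under 0.05. The first day holds the largest falls, down to -5.42 in *Klf4*, *Klf6* rises by 0.87 and 0.88 in the later steps, and 5 of the 8 members pass no threshold from day 2 to day 3.

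Counted over the family, 6 of 8 members fell and 0 rose from day 0 to day 1, where 30.8% of all tested genes fell, 30.1% rose and 60.9% thus passed the test. For day 2 against day 0 it was 2 higher and 6 lower (34.2% and 32.4% of all genes, 66.6% together), and for day 3 against day 0 the same numbers (35% and 35.9%, 70.9% together). At day 1, 6 members had libraries that did not overlap with those of day 0, beside 67.5% of all genes. At days 2 and 3 it was all 8, beside 67.8% and 72.2%. With most of the transcriptome changed, the counts in either direction and those without overlap do not set the family apart. The falls, in 6 of 8 members, were more frequent than the 30.8% to 35.9% of all genes. The members were chosen with earlier results of these data known, so this was not tested. From day 1 to day 2, 3 members rose and 4 fell (32.5% and 29.6% of all genes, 62.1% together). From day 2 to day 3, 1 rose and 2 fell (15.9% and 15.6%, 31.5% together). The median log2 fold change of the 8 members was -1.10 at day 1 and -1.45 at day 3 against day 0, beside 0.00 and -0.01 over all genes.

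The summed level of the 8 members fell mostly within the first day. It was 983 ± 32.9 TPM (SD, n = 3) at day 0, 249 ± 9.91 TPM at day 1, 209.6 ± 21.2 TPM at day 2 and 243 ± 28.6 TPM at day 3. The libraries of day 2 lay below those of day 1, and those of day 3 overlapped with both. *Klf2*, *Klf4* and *Klf5* made up 72.2% ± 1.17 of the sum at day 0, 29.3% ± 0.28 at day 1, 10.4% ± 1.51 at day 2 and 9.06% ± 0.26 at day 3. *Klf6* went the other way, from 1.86% of the sum to 30.5%.

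**Figure D3:**
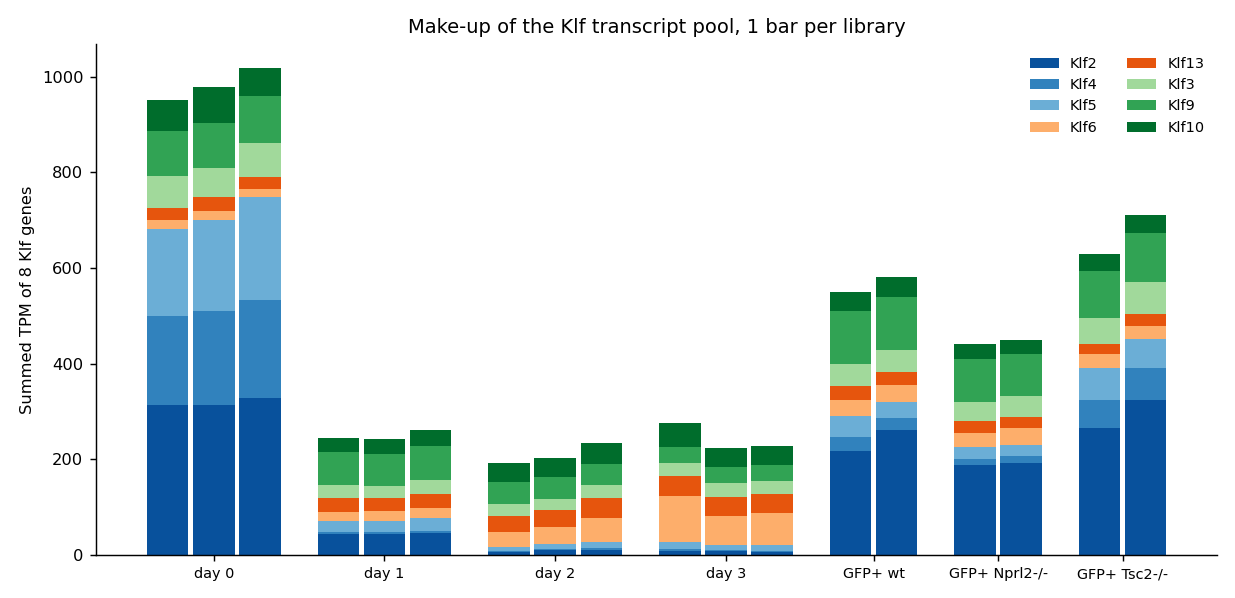
Summed TPM of the 8 members, 1 stacked bar per library. At day 0 the bars are led by *Klf2*, *Klf4* and *Klf5* (72.2% of the sum on average), and at day 3 these genes hold 9.06%.

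Genes known to act on *Klf* genes changed in both directions. Of 18 listed signalling genes, 7 rose and 7 fell from day 0 to day 3, shares near the 35% and 35.9% of all genes. *Lifr*, a receptor subunit for LIF, fell from 23.7 ± 2.63 to 2.98 ± 0.67 TPM (SD, n = 3, log2 fold change -3.68 ± 0.12, adjusted p = 2.42e-15). *Socs3*, a feedback target of Stat3, fell from 64.9 ± 12.7 to 8.79 ± 2.33 TPM (-2.96, adjusted p = 1.52e-08), and its lowest mean was 2.04 TPM at day 1. *Egr1*, an immediate early gene of serum and Erk signalling, rose from 2.77 ± 1.87 to 67.2 ± 37.8 TPM (4.48 ± 0.69, adjusted p = 3.8e-04). *Srf*, the serum response factor, rose from 31.8 to 83.0 TPM (1.30 ± 0.09, adjusted p = 9.23e-10).

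Of 14 listed partners and modifiers of Klf proteins, 5 rose and 5 fell by day 3, again near the 35% and 35.9% of all genes. *Kat2b*, an acetyltransferase, fell by 2.19 on the log2 scale (adjusted p = 9.21e-13) and *Fbxw7*, a ubiquitin ligase subunit, by 0.60 (1.14e-06). *Fbxo32*, another such subunit, rose by 2.66 (3.84e-11) from a level of 0.532 TPM, and *Ctbp1*, the corepressor partner of Klf3, rose by 0.75 (5.28e-09) from 72.4 to 129 TPM. The naive network outside the family fell more evenly, with 10 of 11 genes lower at day 3 and 0 higher. *Prdm14* and *Tcl1*, both naive state factors, fell from 34.5 to 0.0184 TPM and from 115 to 0.118 TPM, with log2 fold changes of -10.47 and -10.39 (adjusted p = 1.27e-16 and 3.43e-11). At least 1 library of day 3 was at 0 for each, so these fitted values depend on the prior count.

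Of 18 other Klf and Sp genes listed, 16 were tested in the time course, and 3 rose and 9 fell by day 3, beside 35% and 35.9% of all genes, with a median log2 fold change of -0.38. Some were as abundant as the members. *Sp1*, a widely expressed Sp gene picked here after its values were seen, averaged 72.4 TPM at day 0 and 101 TPM at day 1, when it lay above every member. *Sp5*, a Wnt target, fell from 5.75 to 0.190 TPM (-4.96 ± 0.44, adjusted p = 6.38e-09). *Klf7* rose from 3.76 ± 0.75 to 18.9 ± 0.79 TPM (2.23 ± 0.19, adjusted p = 3.72e-09), and it averaged 12.9 TPM at day 1. *Klf17* (-2.78, adjusted p = 0.00335) and *Klf14* (4.48, adjusted p = 2.61e-05) passed the test at levels that never exceeded 0.411 and 1.39 TPM in the time course, so that their fitted values depend on the prior count.

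In GFP+ wild-type cells the family was again led by *Klf2*, at 216 and 260 TPM, followed by *Klf9* at 111 TPM in both libraries. *Klf4* and *Klf5* stood much lower beside it than at day 0 of the time course. *Klf4* averaged 27.6 TPM, or 14.1% of its mean at day 0, and *Klf5* 39.0 TPM, or 19.9%. *Klf2* was at 74.9%, *Klf3* at 71.0% and *Klf10* at 61.3% of day 0, *Klf13* at 104%, *Klf9* at 116% and *Klf6* at 188%. The experiments are separate and the culture of day 0 is not given in the sources used here, so no test was made. Within GFP+ wild-type *Klf10* (40.7 TPM) lay above *Klf6* (34.3 TPM), and *Klf5* overlapped with both. *Klf13* (28.0 TPM) and *Klf4* could not be ordered.

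*Klf4* and *Klf5* moved in opposite directions in the 2 KO lines. *Klf4* was 29.7 and 25.5 TPM in wild-type, 11.4 and 13.8 TPM in *Nprl2* KO and 58.1 and 67.7 TPM in *Tsc2* KO. The 3 genotypes did not overlap. In the edgeR fit over 13725 genes, the log2 fold change against wild-type was -1.09 ± 0.12 in *Nprl2* KO (2.13-fold lower, adjusted p = 3.5e-04) and 1.15 ± 0.11 in *Tsc2* KO (2.22-fold higher, adjusted p = 1.82e-05). The 2 comparisons share the wild-type libraries, so the KO lines were also compared with each other, and *Klf4* was 4.73-fold higher in *Tsc2* KO than in *Nprl2* KO (log2 fold change 2.24 ± 0.12, adjusted p = 1.24e-07). *Klf4* passed all 3 tests under every alternative run.

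*Klf5* was 44.5 and 33.4 TPM in wild-type, 26.5 and 23.8 TPM in *Nprl2* KO and 66.5 and 61.2 TPM in *Tsc2* KO, again without overlap. It was 1.53-fold lower in *Nprl2* KO (-0.62 ± 0.14, adjusted p = 0.0189), 1.59-fold higher in *Tsc2* KO (0.67 ± 0.13, adjusted p = 0.00205) and 2.43-fold higher in *Tsc2* KO than in *Nprl2* KO (1.28 ± 0.13, adjusted p = 1.78e-05). The fall in *Nprl2* KO kept its direction and lost its call without 1 of 3 libraries. It was -0.41 without wild-type library 1 (adjusted p = 0.167), -0.69 without *Nprl2* KO library 1 (0.0598) and -0.55 without *Nprl2* KO library 2 (0.141), over a range of 3.94e-05 to 0.167.

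*Klf2* differed between the KO lines, and neither of its differences from wild-type passed the test. It was 188 and 193 TPM in *Nprl2* KO and 266 and 323 TPM in *Tsc2* KO, on either side of wild-type and without overlap. Against wild-type the log2 fold change was -0.29 (95% interval -0.55 to -0.04, adjusted p = 0.168) in *Nprl2* KO and 0.27 (95% interval 0.02 to 0.52, adjusted p = 0.101) in *Tsc2* KO. Between the KO lines it was 0.56 ± 0.11, or 1.48-fold (adjusted p = 0.00429). The calls against wild-type depended on the filter and on single libraries. Without a filter on low counts both differences were called (adjusted p = 0.00312 and 0.00402). Without wild-type library 1 the fall in *Nprl2* KO was -0.44 and called (adjusted p = 0.0371, over a range of 0.00312 to 0.53). In *Tsc2* KO the rise was 0.42 without wild-type library 2 (adjusted p = 0.0138) and 0.39 without *Tsc2* KO library 1 (0.0286), over a range of 0.00252 to 0.485.

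**Figure D4:**
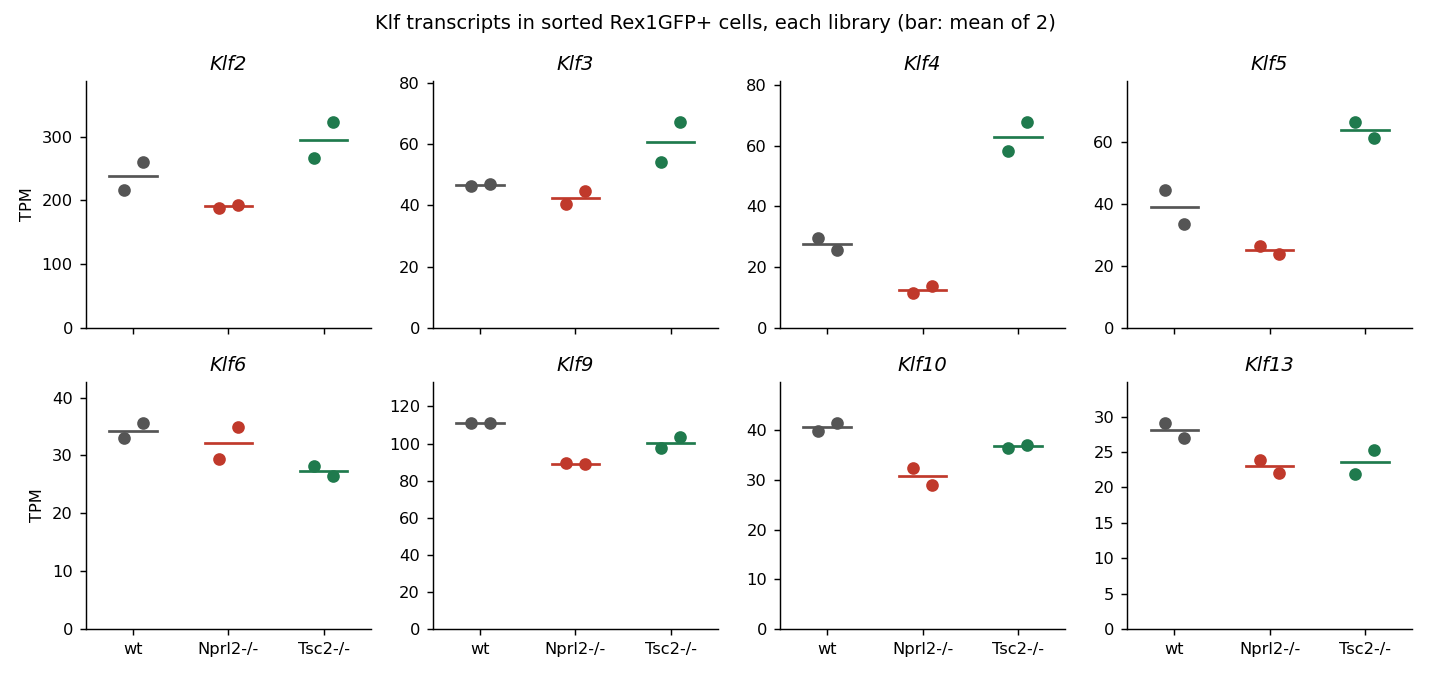
Level of each member in TPM in GFP+ cells of the 3 genotypes, one point per library and a bar at the mean of 2 libraries. *Klf4* and *Klf5* are lowest in *Nprl2* KO and highest in *Tsc2* KO, with *Klf4* between 58.1 and 67.7 TPM in the latter.

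The ratio of *Klf2* to *Klf4* within a library separated the genotypes. It was 7.28 and 10.2 in wild-type, 14.0 and 16.6 for *Nprl2* KO, while *Tsc2* KO gave 4.58 and 4.77. The ratio of *Klf5* to *Klf4* was 1.308 to 1.5002 in wild-type, 1.73 to 2.34 in *Nprl2* KO and 0.904 to 1.14 in *Tsc2* KO. At day 0 of the separate time course the ratio of *Klf5* to *Klf4* was 0.963 to 1.05. That of *Klf2* to *Klf4* was 1.592 to 1.6996 there, below the ratio in every GFP+ library.

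The other members changed by less than *Klf4* and *Klf5*. *Klf3* was 46.4 and 47.0 TPM in wild-type, 40.3 and 44.7 TPM in *Nprl2* KO and 54.3 and 67.2 TPM in *Tsc2* KO. It was higher in *Tsc2* KO than in wild-type (0.34 ± 0.11, adjusted p = 0.0297) and than in *Nprl2* KO (0.44 ± 0.11, adjusted p = 0.00624). In *Nprl2* KO against wild-type the change was -0.10 (95% interval -0.34 to 0.13, adjusted p = 0.647). The rise against wild-type was not called without wild-type library 1 (adjusted p = 0.138), wild-type library 2 (0.0734) or *Tsc2* KO library 2 (0.297), over a range of 0.00323 to 0.297. The difference between the KO lines was not called without *Nprl2* KO library 1 (0.0573) or *Tsc2* KO library 2 (0.0918), over a range of 1.88e-04 to 0.0918.

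*Klf6* was lowest in *Tsc2* KO, at 28.2 and 26.5 TPM, with 33.1 and 35.6 TPM in wild-type and 29.3 and 34.9 TPM in *Nprl2* KO. Its log2 fold change was -0.36 ± 0.10 against wild-type (adjusted p = 0.0181) and -0.31 ± 0.10 against *Nprl2* KO (adjusted p = 0.0291). *Nprl2* KO and wild-type overlapped (-0.05, 95% interval -0.26 to 0.17, adjusted p = 0.833). The call against wild-type was lost without wild-type library 2 (0.108) or *Tsc2* KO library 2 (0.151), over a range of 0.00201 to 0.151. Against *Nprl2* KO it was lost without *Nprl2* KO library 2 (0.259), *Tsc2* KO library 1 (0.055) or *Tsc2* KO library 2 (0.207), over a range of 0.00644 to 0.259.

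*Klf9* and *Klf10* were lower in *Nprl2* KO. *Klf9* was 111 and 111 TPM in wild-type, 89.3 and 88.8 TPM in *Nprl2* KO (-0.28 ± 0.06, adjusted p = 0.0229) and 97.5 and 103 TPM in *Tsc2* KO (-0.18 ± 0.06, adjusted p = 0.0524). *Klf10* was 39.9 and 41.4 TPM in wild-type, 32.5 and 28.9 TPM in *Nprl2* KO (-0.37 ± 0.09, adjusted p = 0.0346) and 36.4 and 37.1 TPM in *Tsc2* KO (-0.18, adjusted p = 0.164). Neither gene passed the test between the KO lines, with differences of 0.10 (95% interval -0.04 to 0.24) and 0.19 (95% interval -0.01 to 0.39). The call of *Klf9* in *Nprl2* KO was lost on leaving out any 1 of the 4 libraries (adjusted p = 0.0658 to 0.113), with a log2 fold change that stayed between -0.30 and -0.26. That of *Klf10* was lost without wild-type library 1 (0.0742), wild-type library 2 (0.146) or *Nprl2* KO library 2 (0.213), over a range of 0.00559 to 0.213.

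*Klf13* was 29.0 and 27.0 TPM in wild-type, 23.9 and 22.1 TPM in *Nprl2* KO and 21.9 and 25.2 TPM in *Tsc2* KO. Both KO lines lay below wild-type and overlapped with each other. The log2 fold change was -0.24 (95% interval -0.43 to -0.05, adjusted p = 0.129) in *Nprl2* KO and -0.28 ± 0.09 (adjusted p = 0.0283) in *Tsc2* KO. The latter was not called without wild-type library 1 (0.134), wild-type library 2 (0.0525) or *Tsc2* KO library 1 (0.207), over a range of 0.00744 to 0.207.

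**Figure D5:**
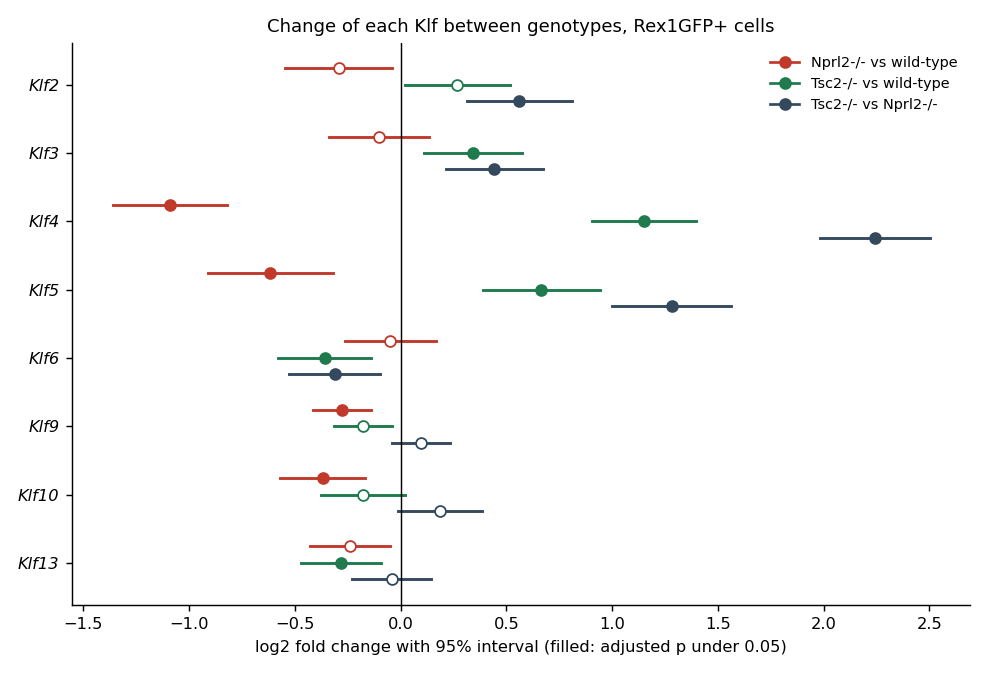
Log2 fold change of each member for *Nprl2* KO against wild-type, *Tsc2* KO against wild-type and *Tsc2* KO against *Nprl2* KO, with 95% intervals from edgeR, where filled points have an adjusted p under 0.05. *Klf4* lies at -1.09, 1.15 and 2.24, and *Klf5* at -0.62, 0.67 and 1.28.

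In *Nprl2* KO, 4 of 8 members were lower than wild-type and 0 higher, where 3.66% of all tested genes were lower, 2.78% higher and 6.43% called in either direction. In *Tsc2* KO, 3 members were higher and 2 lower (14.9% and 14.2% of all genes, 29.1% together). Between the KO lines, 4 were higher in *Tsc2* KO and 1 lower (17.5% and 16.6%, 34.2% together). Libraries did not overlap with wild-type for 7 members in *Nprl2* KO and 8 in *Tsc2* KO, beside 51.7% and 66.2% of all genes. The median log2 fold change of the members was -0.28 for *Nprl2* KO and 0.05 for *Tsc2* KO, beside 0.00 over all genes in both. The summed level of the family was 565 ± 22.1 TPM (SD, n = 2) in wild-type, 446 ± 5.75 TPM in *Nprl2* KO and 670.2 ± 58.0 TPM in *Tsc2* KO, and *Klf2*, *Klf4* and *Klf5* made up 53.9%, 51.2% and 62.8% of it.

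Cell-state markers moved with the genotypes. The 6 formative epiblast markers summed to 421 to 507 TPM in wild-type, 576 to 669 TPM in *Nprl2* KO and 117 to 122 TPM in *Tsc2* KO. In *Tsc2* KO 5 of 6 fell against wild-type, beside 14.2% of all genes, and *Sox3* was below 1 TPM. *Dnmt3b* made up most of these sums, at means of 338, 447 and 80.0 TPM. In *Nprl2* KO *Dnmt3b*, *Otx2* and *Pou3f1* lay above wild-type, and *Fgf5*, *Lef1* and *Sox3* overlapped with it. The 5 pluripotent markers summed to 3097 to 3203, 2670 to 3014 and 3845 to 4062 TPM. In the same order of genotypes *Pou5f1* averaged 1716, 1748 and 1755 TPM and *Sox2* 357, 315 and 370 TPM. *Nanog* averaged 328, 270 and 632 TPM and *Esrrb* 158, 79.9 and 329 TPM. *Zfp42*, whose reporter was used for the sort, is also one of these markers and averaged 591, 430 and 867 TPM. Their part in the changes of the members was not tested. Feeder markers differed between the *Tsc2* KO libraries, as given above, and their part in the changes of the members was not tested either. Against wild-type, the log2 fold change of *Klf4* was 1.06 without *Tsc2* KO library 2 and 1.24 without *Tsc2* KO library 1. Without *Tsc2* KO library 2, that of *Klf3* was 0.20 in place of 0.34 and that of *Klf6* -0.30 in place of -0.36.

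Of the 18 signalling genes, 0 were higher and 2 lower in *Nprl2* KO (2.78% and 3.66% of all genes), and 3 were higher and 5 lower in *Tsc2* KO (14.9% and 14.2%). *Lifr* was 15.5 ± 0.19 TPM (SD, n = 2) in wild-type and 11.1 ± 1.01 TPM in *Nprl2* KO (-0.67 ± 0.11, adjusted p = 0.00426), and *Tgfbr1*, a Tgf-beta receptor, was 19.3 and 13.1 TPM (-0.51, adjusted p = 0.00843). *Stat3* was 14.3 ± 1.15 TPM in wild-type and 21.2 ± 1.90 TPM in *Tsc2* KO (0.54 ± 0.11, adjusted p = 0.00323), and *Mapk7*, which encodes Erk5, rose by 0.44 (adjusted p = 0.00911). *Srf* fell by 0.75 in *Tsc2* KO (adjusted p = 8.49e-04) and *Egr1* by 1.28 (adjusted p = 0.045), the latter at levels below 1 TPM. *Stat3* was at 61.0 ± 1.37 TPM (SD, n = 3) at day 0 and at 10.6 ± 0.61 TPM at day 1.

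Of the 14 partners, 0 were higher and 2 lower in *Nprl2* KO (2.78% and 3.66% of all genes), and 1 was higher and 4 lower in *Tsc2* KO (14.9% and 14.2%). *Crebbp*, a coactivator acetyltransferase, was 15.7 TPM in wild-type, 11.01 TPM in *Nprl2* KO (-0.46, adjusted p = 0.00917) and 10.8 TPM in *Tsc2* KO (-0.57, adjusted p = 5.2e-04). *Ctbp2*, a corepressor partner of Klf3, was 280.5, 226 and 214 TPM (-0.27 and -0.42, adjusted p = 0.0458 and 0.0011). *Hdac2*, a histone deacetylase of the Sin3 complexes, was higher in *Tsc2* KO by 0.28 (adjusted p = 0.038).

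Of the 11 listed genes of the naive network outside the family, 1 was higher and 5 lower in *Nprl2* KO (2.78% and 3.66% of all genes). In *Tsc2* KO 7 were higher and 1 lower (14.9% and 14.2%). *Tbx3*, a LIF-responsive factor, was 26.9 TPM in wild-type, 10.7 TPM in *Nprl2* KO (-1.28 ± 0.09, adjusted p = 2.87e-05) and 101 TPM in *Tsc2* KO (1.87 ± 0.08, adjusted p = 7.17e-08). *Tfcp2l1*, another naive factor, was 35.9 and 156 TPM in wild-type and *Tsc2* KO (2.09, adjusted p = 8.03e-04). *Tcl1* was lower in *Nprl2* KO (-1.43, adjusted p = 2.85e-04). *Dppa3* went against the rest, at 50.6 TPM in wild-type, 109 TPM in *Nprl2* KO (1.10, adjusted p = 0.00709) and 11.6 TPM in *Tsc2* KO (-2.16, adjusted p = 9.4e-05).

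Of the other Klf and Sp genes, 13 were tested in GFP+ cells. In *Nprl2* KO 1 was higher and 4 lower (2.78% and 3.66% of all genes). In *Tsc2* KO 1 was higher and 5 lower (14.9% and 14.2%). *Klf15*, a factor known from glucocorticoid response and metabolism, was 10.3 and 17.1 TPM in wild-type, 6.11 and 6.68 TPM in *Nprl2* KO (-1.04 ± 0.24, adjusted p = 0.0398) and 27.4 and 33.3 TPM in *Tsc2* KO (1.13 ± 0.21, adjusted p = 0.00411). The genotypes did not overlap. In the time course *Klf15* was 23.1 ± 3.33 TPM (SD, n = 3) at day 0 and 4.53 ± 1.12 TPM at day 1. *Sp4* was lower in both KO lines, by 0.91 (adjusted p = 0.00921) and 0.80 (0.0041) on the log2 scale, at no more than 3.22 TPM. *Sp6* was higher in *Nprl2* KO (1.21, adjusted p = 0.0198), and *Sp8*, below 1 TPM, was lower in *Tsc2* KO (-2.14, adjusted p = 0.00793).

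The genes with the most similar pattern to each member were found among 13414 genes. The measure was the root-mean-square difference of log2(CPM + 1) over the 7 groups, with the days and the genotypes each centred on their mean. CPM is counts scaled to the library total after TMM normalization. The added 1 flattens differences at low levels, such as those of *Prdm14* and *Tcl1* at days 2 and 3. For *Klf4* they were *Tbx3* (0.33), *Prdm14* (0.34) and *Tcl1* (0.38), all of the naive network list. The last 2 did not follow *Klf4* in every group. *Tcl1* averaged 44.3 TPM in wild-type and 48.3 TPM in *Tsc2* KO, where *Klf4* was 2.22-fold higher. *Prdm14* averaged 9.28 TPM in wild-type and 8.19 TPM in *Nprl2* KO, where *Klf4* was 2.13-fold lower. *Klf2* was nearest to *Pdgfa* (0.23), a growth factor gene, then *Zfp42* (0.30), the gene of the reporter used for the sort, and *Spp1* (0.32). *Klf5* was nearest to *Nid1* (0.12), *Susd2* (0.16) and *Itpka* (0.16). These distances are larger than those of the members with small changes, where many genes lie close. *Klf3* had *Kdm3b* (0.060), *Mavs* (0.071) and *Afmid* (0.076), *Klf6* had *Chdh* (0.070), *Vwa5b2* (0.093) and *Nsd2* (0.099), and *Klf9* had *Msrb2* (0.070), *Glyctk* (0.094) and *D16Ertd472e* (0.098). *Klf10* was nearest to *Clcn6* (0.068), *Arhgap26* (0.071) and *Cyb561a3* (0.079), and *Klf13* to *Gna12* (0.031), *Pip4p2* (0.041) and *Acat2* (0.044). Within the family, *Klf5* was the nearest member to *Klf2*, at a difference of 0.51 and at rank 24 among all genes compared. It was also the nearest member to *Klf4*, at 0.77.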

How the data were processed

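Estimated counts of kallisto 0.42.1 per RefSeq transcript, and the TPM it computes from them, were deposited by the authors without normalization between libraries. The submitters' processing notes name mm10, and the library preparation of the time course is not given in the sources used here. The authors' deposited comparisons of each KO with wild-type (log2 fold change and p-value columns) were not used. Estimated counts were summed for 24296 genes and rounded. Between 1.65% and 3.57% of counts per library had no gene. The 144 deposited TPM values of the members matched these sums within 0.001 TPM. A count of 0 allows 3 counts, for counting error only.

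Counts were fitted with edgeR 4.0.16 in R 4.3.3 (TMM, low-count filter, robust quasi-likelihood test, Benjamini-Hochberg adjustment over all genes, threshold 0.05), separately for the time course and the GFP+ libraries. All 8 members were tested in both. Named genes are the members, the 3 nearest patterns of each, and from each list the 2 called genes with the largest rise and fall for day 3 against day 0 and for each KO against wild-type. The members, lists and tests were chosen with earlier results of these data known. In data simulated for day 1 against day 0, edgeR recovered 95 and 99 of 100 genes changed by 1 and 2 on the log2 scale, with 8 false calls. For *Nprl2* KO against wild-type it recovered 94 and 98 of 100, with 15 false calls. Few genes were changed in these simulations, far fewer than were called from day 0 to day 1. Changes smaller than 1 on the log2 scale were not simulated. Alternatives were DESeq2 1.42.0, limma 3.58.1 on log2(TPM + 1), upper-quartile normalization, other filters on low counts, a replicate block, each pair of groups alone, CPM levels and leaving out each library.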

Additional observations from a re-analysis of the deposited data

How the results depend on the processing

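Every call of a member against day 0 was kept under the alternatives run, as were *Klf4* in the 3 GFP+ comparisons, *Klf5* in *Tsc2* KO against wild-type and between the KO lines, and *Klf2* between the KO lines. Members called from day 2 to day 3 were 1 with the 2 groups alone in place of 3, and those called in *Tsc2* KO were 3 with DESeq2 and 3 with limma in place of 5. Leaving out each library gave 1 to 2 members called in *Nprl2* KO in place of 4, 3 to 5 in *Tsc2* KO, 3 to 4 between the KO lines in place of 5, 5 to 7 from day 1 to day 2 and 2 to 4 from day 2 to day 3. With all libraries kept, calls were also lost for *Klf2* from day 2 to day 3 with the 2 groups alone (adjusted p = 0.0832) and limma (0.0663), and for *Klf10* in *Nprl2* KO with DESeq2 (0.0641) and the 2 groups alone (0.0597). In *Tsc2* KO they were lost for *Klf3* with DESeq2 (0.0728), for *Klf6* with limma (0.0586) and for *Klf13* with DESeq2 (0.0629) and limma (0.124), and between the KO lines for *Klf6* with DESeq2 (0.0657) and limma (0.151). With the 2 groups alone *Klf6* (0.0345) and *Klf13* (0.0485) were called from day 0 to day 1. *Klf9* was called in *Tsc2* KO with upper-quartile normalization (0.0476), with at least 10 counts (0.0467) and with the 2 groups alone (0.0441). With Pearson correlation, 1 of the 24 nearest genes, *Susd2* for *Klf5*, stayed among the nearest. Changes of sign were in genes without a call. On leaving out each library, *Klf4* lay between -0.144 (without day 3 library 1) and 0.632 and *Klf10* between -0.0836 (without the same library) and 0.130 from day 2 to day 3. *Klf6* in *Nprl2* KO lay between -0.176 and 0.0547, above 0 without wild-type library 2 (0.0180) or *Nprl2* KO library 1. *Klf13* between the KO lines lay between -0.123 and 0.0416, above 0 without *Nprl2* KO library 1 (0.0243) or *Tsc2* KO library 1, and was 0.0338 with limma. The cause was not tested.

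Over all genes, 883 were called in *Nprl2* KO, 1667 without a filter on low counts and 339 to 548 on leaving out each library. *Tsc2* KO had 3996, and 2661 without wild-type library 1 or 2225 without *Tsc2* KO library 2. Between the KO lines 4692 became 2974 without *Tsc2* KO library 2, and from day 2 to day 3 4525 became 2969 without day 2 library 2. On log2(TPM + 1) the share of higher calls was 63.8% in place of 52.4% from day 1 to day 2 and 61.7% in place of 51.3% between the KO lines. Of 40 levels given as a percentage of day 0 or wild-type, 11 moved by more than 1 SD with CPM in place of TPM.

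Libraries of different groups share replicate numbers, but nothing in the labels says that a number marks a shared culture. The deviations of same-numbered libraries correlated at -0.22 to 0.27 in the time course, beside -0.38 to 0.38 for libraries with different numbers. Between the genotypes those of same-numbered libraries correlated at 0.372, 0.318 and 0.195. With 2 libraries per genotype, both same-numbered pairs give the same value by construction and the other pairs its negative. With a replicate block, 6 members in place of 4 and 2072 genes in place of 883 were called in *Nprl2* KO. *Klf2* was then called in *Nprl2* KO (adjusted p = 0.00459) and *Tsc2* KO (0.00252), *Klf13* in *Nprl2* KO (0.0431) and *Klf9* in *Tsc2* KO (0.0202). Depth limits *Klf4* most, which had 32 to 97 estimated counts per library at days 2 and 3.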

Other observations

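In some groups 1 library was highest for most members. Day 1 library 3 had the highest TPM of its day for all 8 members, day 2 library 3 for 7 of 8 (all but *Klf9*) and day 3 library 1 for 6 of 8 (*Klf2*, *Klf4*, *Klf5*, *Klf6*, *Klf10* and *Klf13*). *Tsc2* KO library 2 was the higher for 6 of 8. The counts were more even at day 0, with 5 in library 3 and 3 in library 2, and in wild-type and *Nprl2* KO, with 4 in each library. No such count was made over all genes. *Egr1* was 29.4, 28.4 and 56.8 TPM in the libraries of day 2 and 102, 72.5 and 27.0 TPM in those of day 3. *Fos* and *Junb*, immediate early genes picked after their values were seen, followed a like order. *Fos* was 2.74, 2.20 and 10.5 TPM at day 2 and 51.0, 20.4 and 6.96 TPM at day 3, and *Junb* was 8.70, 7.92 and 16.6 TPM and 42.6, 27.4 and 22.1 TPM. Over the genes above a set mean CPM, the deviations of day 2 library 3 and day 3 library 1 from the means of their days correlated at 0.38. This was the highest value among pairs of time-course libraries from different days. It is taken across genes, which are not independent replicates.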
